A study of Mus musculus with 12 samples.

Results

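Transcripts of the 8 voltage-gated calcium channel alpha-1 subunits Cacna1a, Cacna1b, Cacna1c, Cacna1d, Cacna1e, Cacna1g, Cacna1h and Cacna1i were followed in the dorsal hippocampus of male Mbnl2 WT and Mbnl2 KO mice. They were taken by gene symbol, as the pore-forming subunits of the neuronal calcium channel types, and are 8 of 24421 genes counted. All 8 were among the 15622 genes with enough reads to test, with 602 or more reads in every library. The study held 12 libraries of polyadenylated RNA, 1 from each of 12 mice, in 4 groups of 3: WT house controls, WT trained mice, KO house controls and KO trained mice. All mice were of the strain 129sv/C57BL/6j and were 4 to 5 months old. The labels give neither the Mbnl2 allele nor the training task, and replicate numbers do not pair animals across groups.

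Total counts were 19737929 to 27427076 per library. Levels are given as CPM, the count per 1000000 reads of the library total after that total was adjusted by TMM scaling. Mbnl2 itself, the targeted gene, was counted at 326 ± 11.7 CPM in WT house controls, 363 ± 2.50 in WT trained mice, 471 ± 17.3 in KO house controls and 508 ± 34.4 in KO trained mice (SD, n = 3 each). Averaged over treatments, this was 1.42-fold more under the KO label (edgeR quasi-likelihood test, adjusted p = 0.00626). A gene-level count sums reads over all exons, so it does not check the loss of an exon or of the protein, and WT and KO are used here as the libraries are labelled. Several libraries also held more transcripts of tissue next to the hippocampus than others. The summed markers of striatum and septum were 1163 CPM in WT house control 3, 1268 in KO house control 2 and 1635 in KO trained 2, and 275 to 487 in the other 9. Markers of choroid plexus epithelium ranged from 158 to 22374 CPM. In bulk tissue, fewer cells of a type and less RNA per cell cannot be told apart.

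Voltage-gated calcium channels open when a neuron depolarises and let calcium in, and the alpha-1 subunit forms the pore and the voltage sensor. High-voltage-activated channels serve transmitter release at presynaptic terminals (P/Q-type and N-type), calcium entry at cell bodies and dendrites that reaches the nucleus (L-type) and dendritic and presynaptic calcium entry (R-type). T-type channels open at potentials near rest, inactivate quickly and support burst firing. MBNL2 is an RNA-binding protein known for control of alternative splicing in the brain, which a count summed over a gene does not measure.

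Per kilobase of annotated exon, the P/Q-type gene Cacna1a had the highest level of the 8, at 23.1 ± 4.58 CPM per kb (SD over 12 libraries). The T-type gene Cacna1h followed at 19.3 ± 4.94 CPM per kb and the R-type gene Cacna1e at 19.1 ± 4.66. The N-type gene Cacna1b lay at 14.97 ± 2.68 CPM per kb. The lower 4 were the L-type gene Cacna1c at 7.80 ± 1.90, the T-type gene Cacna1i at 7.12 ± 2.77, the L-type gene Cacna1d at 4.95 ± 0.85 and the T-type gene Cacna1g at 4.85 ± 1.79 CPM per kb. The ranges of every pair of neighbours in this order overlapped. Within libraries, Cacna1e exceeded Cacna1b and Cacna1b exceeded Cacna1c in 12 of 12, whereas Cacna1h exceeded Cacna1e, Cacna1c exceeded Cacna1i and Cacna1d exceeded Cacna1g in 7 of 12 each. The order at the top rested on the length used: per kb of coding sequence, Cacna1e came first at 66.6 CPM per kb and Cacna1a second at 37.1. Of 25228 bases of annotated Cacna1e exon, 7246 are coding, against 7104 of 11418 for Cacna1a.

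**Figure D1:**
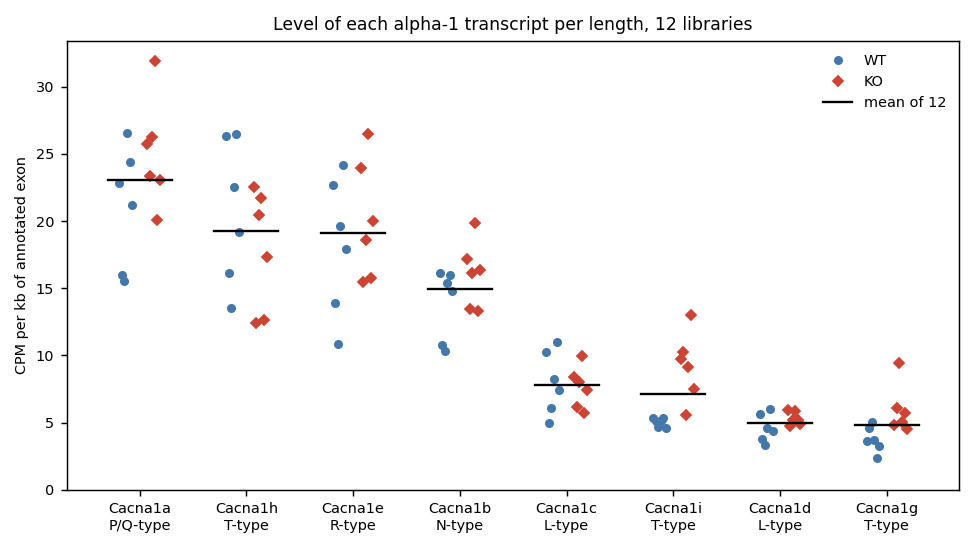
Level of each alpha-1 transcript in CPM per kilobase of annotated exon (y axis), 1 point per library, circles for WT and diamonds for KO, with a line at the mean of 12 libraries. The genes are ordered by mean, from Cacna1a at 23.1 to Cacna1g at 4.85 CPM per kb, and for Cacna1i all diamonds lie above all circles.

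Summed by channel type per kb of annotated exon, T-type genes held 31.1 ± 2.20% of the alpha-1 signal (SD, n = 12), ahead of P/Q-type at 22.8 ± 1.68% and R-type at 18.7 ± 1.70%. The N-type share was 14.8 ± 0.69% and the L-type share 12.6 ± 0.98%. Per kb of coding sequence, the R-type share came first at 32.9 ± 2.38%, ahead of T-type at 22.2 ± 1.99% and P/Q-type at 18.5 ± 1.53%. Per kb of exon, the T-type share was 33.1 ± 1.58% in WT house controls, 29.4 ± 0.27% in WT trained mice, 31.7 ± 0.60% in KO house controls and 30.3 ± 3.49% in KO trained mice (SD, n = 3 each), so the 4 groups lay within 4 percentage points of each other. The make-up of the T-type signal differed more: Cacna1i held 17.3 ± 2.20% of it in WT and 28.4 ± 9.03% in KO libraries, Cacna1h 69.3 ± 7.45% and 53.6 ± 9.27%, and Cacna1g 13.4 ± 5.33% and 18.1 ± 5.13% (SD, n = 6 each). KO house control 3, with 15.7% for Cacna1i, lay inside the WT range of 15.2 to 20.2%, and the other 5 KO libraries, at 25.5 to 41.5%, lay above it.

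The first comparison asked how the alpha-1 transcripts differ between genotypes. The 2 largest differences were in T-type genes: Cacna1i was 1.83-fold and Cacna1g 1.58-fold higher in KO-labelled than in WT-labelled libraries, averaged over both treatments. The differences of the other 6, including the third T-type gene Cacna1h, lay between -0.21 and 0.27 on the log2 scale. None of the 8 passed an adjusted p of 0.05 in the edgeR quasi-likelihood test, where 0.576% of all genes tested did. Cacna1i came nearest, and it was called together with Cacna1g when the same model was tested with DESeq2, which called 2 of 8 members and 5.04% of all genes. At an unadjusted edgeR p under 0.05, the count was 2 of 8 members against 14.4% of all genes. Of the 8 members, 6 had a positive difference, with a median of 0.21 on the log2 scale, while 48.0% of all genes were positive, with a median of -0.01. Without WT house controls 2 and 3 and KO house control 3, picked in an earlier analysis of these data by their tissue markers, 5 of 8 were positive, with a median of 0.00549.

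**Figure D2:**
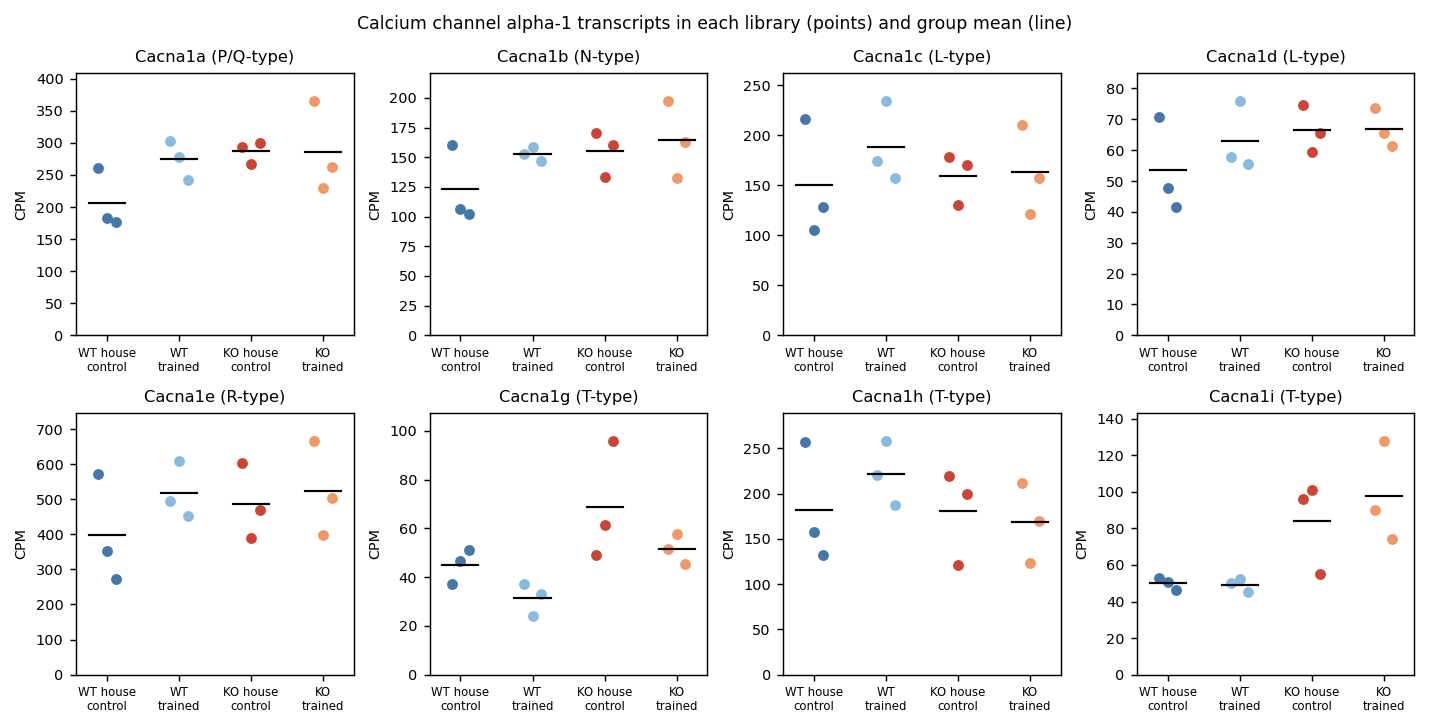
CPM of each alpha-1 transcript (y axes, each starting at 0) in the 3 libraries of each group (points), with the group mean as a line. Cacna1i sits at 45.1 to 52.9 CPM in the 6 WT libraries and at 55.0 to 128 in the 6 KO libraries. For each high-voltage-activated gene, the ranges of the 6 WT and the 6 KO libraries overlap.

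**Figure D3:**
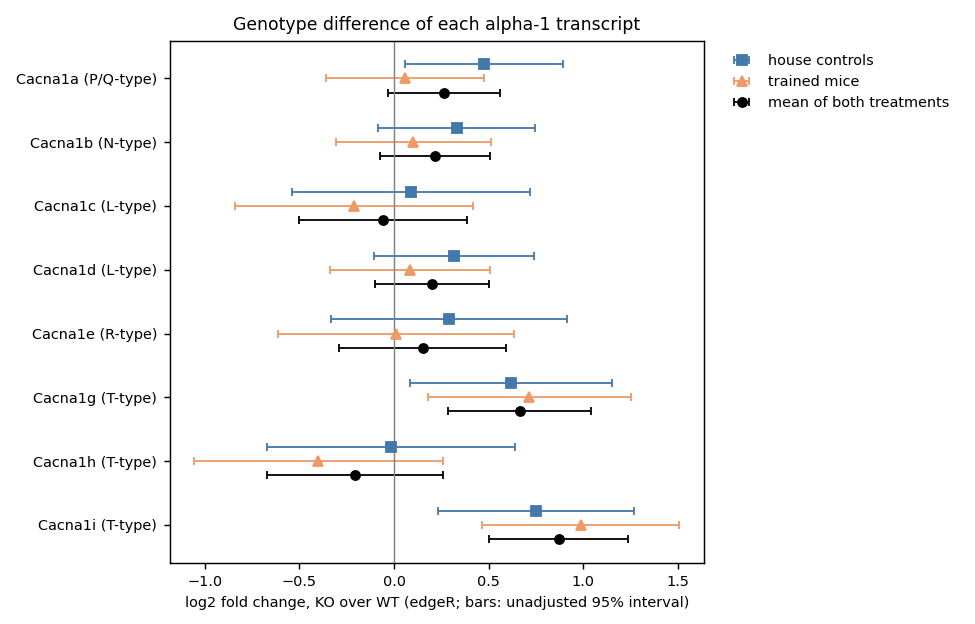
Log2 fold change of KO over WT for each transcript in house controls (squares), trained mice (triangles) and averaged over both (circles), from edgeR, with unadjusted 95% intervals as bars. The average intervals of Cacna1g and Cacna1i lie above 0 and those of the other 6 include 0.

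Cacna1i encodes the T-type pore Cav3.3, known for its slow kinetics among T-type channels. Its gene lies on chromosome 15, 80287238 to 80398279 on the plus strand (mm10), with 37 exon blocks and no overlapping annotated gene. Its level was 52.9, 50.8 and 46.4 CPM in the 3 WT house controls and 50.1, 52.4 and 45.1 in the 3 WT trained mice. It was 95.9, 101 and 55.0 CPM in the 3 KO house controls and 90.3, 128 and 74.2 in the 3 KO trained mice. The 6 WT libraries lay within 8 CPM of each other, and all 6 KO libraries lay above them, with KO house control 3 only just above and KO trained 2 highest. Cacna1i was the only member with all 6 KO libraries above all 6 WT libraries, which held for 1.06% of all genes. No member had all 6 KO libraries below, which held for 0.717%. The mean was 49.6 ± 3.19 CPM in WT and 90.8 ± 24.9 in KO libraries (SD, n = 6 each). The difference averaged over both treatments was 0.87 ± 0.17 (SE) on the log2 scale, with an unadjusted 95% interval of 0.50 to 1.24 and an adjusted p of 0.0538 in edgeR and 6.57e-05 in DESeq2.

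The test of Cacna1i lay close to the threshold, and single libraries moved it across. Without KO house control 3 the difference was 0.99, with an edgeR adjusted p of 0.0221, and without WT house control 1 it was 0.89, with an adjusted p of 0.0496. Over the 12 fits that each left out 1 library, it ran from 0.75 to 0.99, with edgeR adjusted p from 0.0221 to 0.161. The animal numbers in the labels fall into 2 series, with 2 mice of each group in the first and 1 in the second. With the series as a covariate, the difference was 0.84 at an edgeR adjusted p of 0.0191, and in the 8 libraries of the first series alone it was 1.01 at an adjusted p of 0.220. With a single mouse of each group, the second series could not be tested alone.

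Cacna1g encodes Cav3.1, the T-type pore best known for burst firing of thalamic relay neurons. Its level was 37.0, 46.7 and 50.9 CPM in the 3 WT house controls and 37.2, 24.2 and 33.0 in the 3 WT trained mice. It was 48.9, 61.5 and 96.0 CPM in the 3 KO house controls and 51.4, 57.8 and 45.5 in the 3 KO trained mice. KO house control 3 was the highest library by a wide margin. The genotypes did not overlap in trained mice but did in house controls, where the lowest KO library lay below the highest WT library. How many of all genes separate 3 from 3 libraries in this way was not counted. The difference averaged over both treatments was 0.66 ± 0.17 (SE) on the log2 scale, with an unadjusted interval of 0.29 to 1.04 and an adjusted p of 0.113 in edgeR and 0.00816 in DESeq2. Without KO house control 3 it was 0.51, with an edgeR adjusted p of 0.136.

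Cacna1h encodes Cav3.2, and per kb its transcript was the most abundant of the T-type genes. Its level was 257, 158 and 132 CPM in WT house controls, 220.1, 259 and 187 in WT trained mice, 219.9, 121 and 200.04 in KO house controls and 212, 123 and 169 in KO trained mice. All 4 groups overlapped, and the 2 lowest libraries were KO replicate 2 of each treatment. The averaged difference was -0.21 ± 0.21 (SE), with an unadjusted interval of -0.67 to 0.26 and an edgeR adjusted p of 0.688. It was -0.50 without WT house controls 2 and 3 and KO house control 3, and 0.00322 without both KO replicates numbered 2. Cacna1h shares 158 bases of exon with Tpsg1 on the opposite strand, and no source states whether reads were counted by strand.

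The libraries also differed in markers of neighbouring tissue, given here beside the T-type values. The striatum and septum list had 11 of 13 genes higher in KO libraries, with a median log2 difference of 0.99. KO house control 2 and KO trained 2, the highest libraries for this list at 1268 and 1635 CPM, were also the 2 highest for Cacna1i, at 101 and 128 CPM. WT house control 3, with 1163 CPM of these markers, had 46.4 CPM of Cacna1i, within the range of the other WT libraries. Without both of those KO libraries the Cacna1i difference was 0.68, with an edgeR adjusted p of 0.112, and that of Cacna1g was 0.66, with an adjusted p of 0.199. The thalamus list was highest in WT house control 3, at 681 CPM, and in KO house control 3, at 610 CPM, and these libraries held the highest Cacna1g level of their genotype. Over the whole thalamus list, 3 of 12 genes were higher in KO libraries, with a median of -0.33. WT house controls 2 and 3 and KO house control 3 were picked in an earlier analysis of these data for choroid plexus or thalamus transcripts. Without these 3 libraries the Cacna1i difference was 0.94 and that of Cacna1g 0.64. All trained libraries stayed in that fit. WT trained 3 held 11565 CPM of choroid plexus and 468 CPM of thalamus markers, against 11303 and 454 CPM in WT house control 2. Choroid plexus markers were lower in KO libraries for 12 of 12 genes, with a median of -1.36, and leptomeningeal markers for 10 of 10, with a median of -0.89. Neocortex markers were higher for 6 of 8, with a median of 0.48. The fit without the 3 house controls leaves 1 WT house control, assumed to vary as the other groups do.

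Markers of cells of the hippocampus itself also differed between libraries. By edgeR, no marker of any list was called in the averaged genotype effect. All 11 markers of dentate granule neurons were lower in KO libraries, with a median log2 difference of -0.60, and all 7 markers of CA1 pyramidal neurons were higher, with a median of 0.57. The summed dentate markers were 336 to 978 CPM in the 6 KO and 555 to 1389 in the 6 WT libraries. The summed CA1 markers were 484 to 874 CPM in KO and 333 to 681 in WT libraries. Inhibitory interneuron markers, 7 of 10 higher in KO, summed to 721 to 1047 CPM in KO and 739 to 929 in WT libraries. Pan-neuronal markers summed to 6626 to 8210 CPM in KO and 5026 to 7634 in WT libraries, with 8 of 9 higher in KO and a median of 0.16. Apart from 1 thalamus gene at 0 in at least 1 library, every marker of these lists had reads in all 12. The part of these marker differences in the values of the 8 alpha-1 genes and of the related genes below was not tested.

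**Figure D4:**
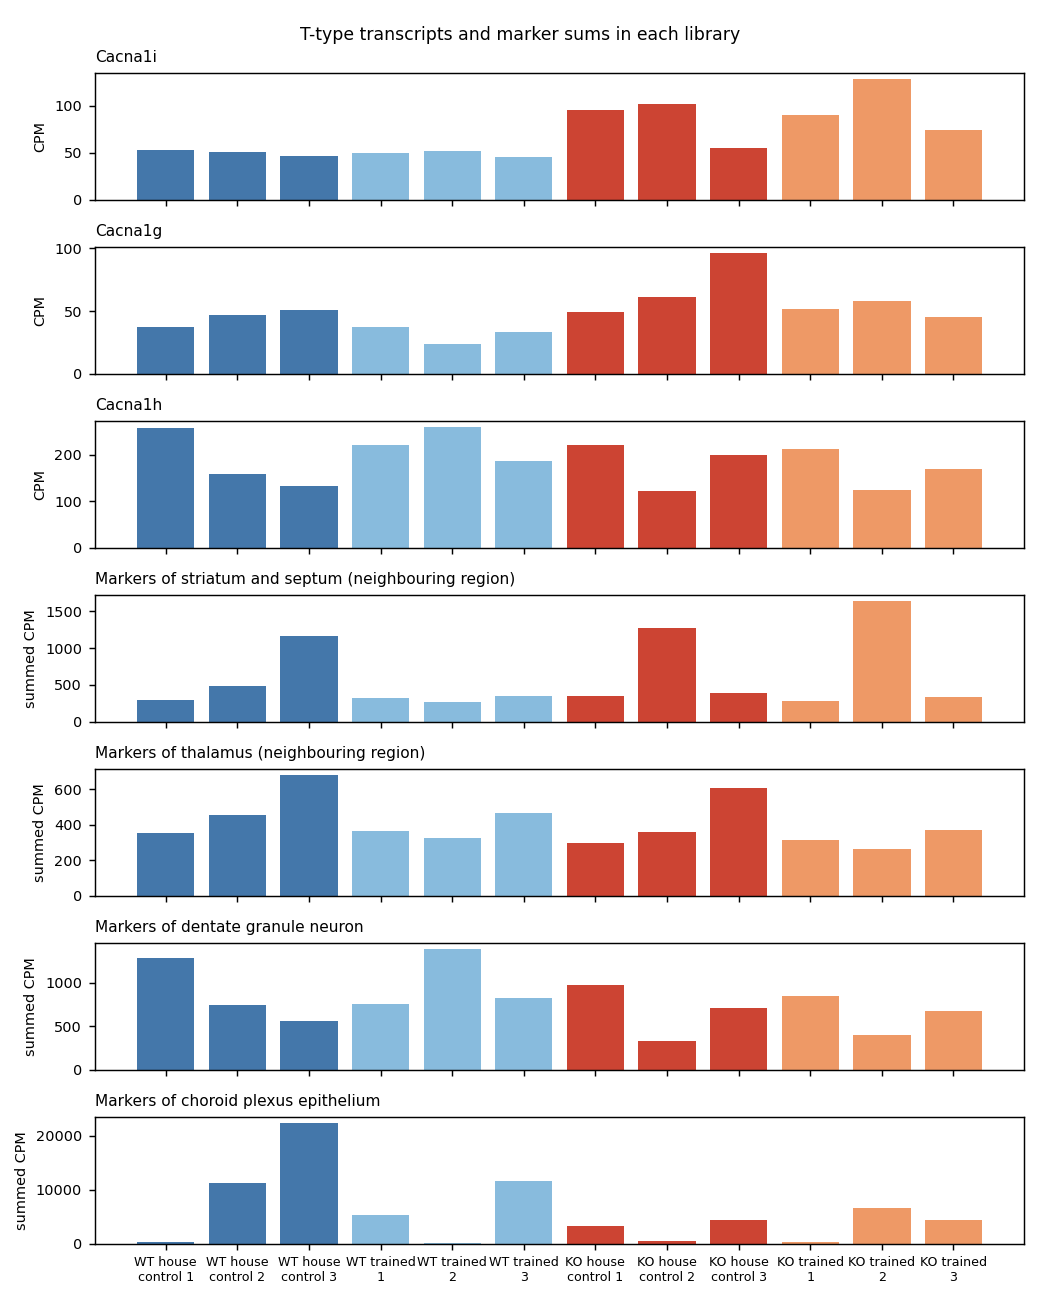
Bars, from 0, of the CPM of the 3 T-type genes and of the summed CPM of 4 marker lists in each of the 12 libraries, coloured by group. The libraries highest for Cacna1i, KO house control 2 and KO trained 2, are also those highest for striatum and septum markers, and WT house control 3 is high for these markers with 46.4 CPM of Cacna1i.

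The presynaptic channels had smaller genotype differences, with averaged intervals that include 0. Cacna1a, the P/Q-type pore Cav2.1 that carries much of the calcium for fast transmitter release, was at 260.4, 182 and 177 CPM in WT house controls and 303, 279 and 242 in WT trained mice. It was at 294, 267 and 299.6 CPM in KO house controls and 365, 229 and 263 in KO trained mice. In house controls all 3 KO libraries lay above all 3 WT libraries, and in trained mice they overlapped. The share of all genes with such a separation of 3 from 3 libraries was not counted. The difference was 0.47 ± 0.19 (SE) in house controls, with an edgeR adjusted p of 0.425, and 0.06 ± 0.19 in trained mice, with an adjusted p of 0.995. Without WT house controls 2 and 3 and KO house control 3, the value in house controls was 0.10, with an edgeR adjusted p of 0.952. The averaged difference was 0.26, with an unadjusted interval of -0.03 to 0.56, and 0.08 without those 3 libraries.

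Cacna1b, the N-type pore Cav2.2 and the target of omega-conotoxin GVIA, was at 161, 107 and 102 CPM in WT house controls, 153, 159 and 147 in WT trained mice, 171, 133 and 161 in KO house controls and 197, 133 and 163 in KO trained mice. WT house controls 2 and 3 were the lowest of the 12, and KO trained 1 the highest. The averaged difference was 0.22, with an unadjusted interval of -0.08 to 0.51 and an edgeR adjusted p of 0.483, and 0.01 without WT house controls 2 and 3 and KO house control 3.

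Cacna1e, the R-type pore Cav2.3, had the most reads of the 8 members, at 573, 352 and 273 CPM in WT house controls and 495, 610.3 and 452 in WT trained mice. It was at 604, 391 and 469.8 CPM in KO house controls and 668, 397 and 505 in KO trained mice. The groups overlapped, with a 2.45-fold range over all 12 libraries. The averaged difference was 0.15, with an unadjusted interval of -0.29 to 0.59, and -0.10 without the same 3 house controls.

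The L-type pores, which couple activity to transcription in hippocampal neurons, overlapped between all 4 groups. Cacna1c (Cav1.2) was at 217, 105 and 128 CPM in WT house controls, 174, 234 and 157 in WT trained mice, 178, 130.4 and 170.0 in KO house controls and 210.2, 121 and 157 in KO trained mice. The averaged difference was -0.06, with an unadjusted interval of -0.50 to 0.38, and -0.35 without WT house controls 2 and 3 and KO house control 3. Cacna1d (Cav1.3), less abundant per kb, was at 70.9, 47.9 and 41.7 CPM in WT house controls, 57.8, 75.8 and 55.5 in WT trained mice, 74.7, 59.5 and 65.6 in KO house controls and 73.5, 65.4 and 61.4 in KO trained mice. Its averaged difference was 0.20, with an unadjusted interval of -0.10 to 0.50 and an edgeR adjusted p of 0.527, and 0.000966 without those 3 libraries. Cacna1d shares 589 bases of exon with Chdh, and Cacna1a 435 bases with the antisense gene Gm16183, each on the opposite strand.

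In house controls, 7 of 8 members had a positive difference, with a median of 0.32 on the log2 scale against -0.000787 for all genes. Without WT house controls 2 and 3 and KO house control 3, described above, 3 of 8 were positive, with a median of -0.08. With all 12 libraries, edgeR called 0 members in house controls, against 0.0128% of all genes. In that same fit, 3 members (Cacna1a, Cacna1g and Cacna1i) had an unadjusted p under 0.05, against 10.7%. DESeq2 with all 12 libraries called 0 members in house controls, against 1.69%. In trained mice, 6 of 8 were positive, with a median of 0.07 against -0.01, and 3 of 8 were, with medians of -0.11 and -0.01, without KO trained 1 or without WT trained 3. With all 12 libraries, edgeR again called 0 members in trained mice, against 0.0128% of all genes. In that fit, 2 members (Cacna1g and Cacna1i) had an unadjusted p under 0.05, against 6.45%. DESeq2 called 1 member in trained mice, Cacna1i, against 0.752% of all genes. The Cacna1i difference was 0.75 ± 0.23 (SE) in house controls and 0.99 ± 0.23 in trained mice, with edgeR adjusted p of 0.343 and 0.375. The Cacna1g difference was 0.62 ± 0.24 and 0.71 ± 0.24, with edgeR adjusted p of 0.419 and 0.632. Without KO house control 3, the Cacna1g difference in house controls was 0.30, with an edgeR adjusted p of 0.636.

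In the authors' deposited table for trained mice, Cacna1i had a log2 fold change of 0.98 with an adjusted p of 0.000843. Cacna1g had one of 0.71 with an adjusted p of 0.028. Of the 24394 genes in that table, 122 had an adjusted p under 0.05. In the authors' deposited table for house controls, the same genes had values of 0.75 and 0.62 with adjusted p of 0.162 and 0.451. These are the same libraries as above, so they are no independent measurement. In the authors' deposited tables the other 6 members had adjusted p of 0.296 or more in both comparisons.

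The second comparison asked how training relates to the same transcripts. In WT libraries, 6 of 8 members were higher in trained mice than in house controls, against 48.3% of all genes. Their median log2 difference was 0.30, against -0.01 for all genes. In KO libraries 5 of 8 members were higher, against 49.1% of all genes, with a median of 0.02 against -0.00306. The counts turned when few libraries were left out: in WT, 1 of 8 was higher without WT house controls 2 and 3 and KO house control 3, with a median of -0.15, and in KO, 1 of 8 was higher without KO house control 2 or without KO trained 1, with medians of -0.06 and -0.16. With all 12 libraries, edgeR called 0 members and 0% of all genes in WT. In that fit, 0 members had an unadjusted p under 0.05, against 9.82%, and DESeq2 called 0 members, against 0.121%. In KO, edgeR called 0 members and 0% of all genes, 0 members had an unadjusted p under 0.05, against 3.01%, and DESeq2 called 0 members, against 0.0449%. Averaged over genotypes, edgeR called 0 members and 0% of all genes, 1 member had an unadjusted p under 0.05, against 11.2%, and DESeq2 called 0 members, against 0.442%. That member was Cacna1g, which was lower after training in both genotypes, at -0.46 ± 0.17 (SE) on average, with an edgeR adjusted p of 0.422. It was -0.30 without KO house control 3, -0.23 in the first animal series alone and -0.16 without that library and WT house controls 2 and 3. Its mean was 44.9 ± 7.12 CPM in WT house controls and 31.5 ± 6.66 in WT trained mice, and 68.8 ± 24.4 in KO house controls and 51.6 ± 6.15 in KO trained mice (SD, n = 3 each). For Cacna1i the averaged training difference was 0.10, with an unadjusted interval of -0.27 to 0.46.

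Whether the genotype difference itself depended on training was tested as an interaction. By edgeR, 0 members and 0% of all genes passed the adjusted threshold, and 0 members had an unadjusted p under 0.05, against 1.5% of all genes. DESeq2 called 0 members and 0% of all genes. The interaction of Cacna1i was 0.24 ± 0.33 (SE), with an unadjusted interval of -0.49 to 0.96, and that of Cacna1g 0.10 ± 0.34, from -0.66 to 0.85. For Cacna1a, whose value was larger in house controls than in trained mice, it was -0.42 ± 0.27, from -1.01 to 0.17, so the 2 treatments were not shown to differ.

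Across the 12 libraries, the high-voltage-activated genes and Cacna1h varied together, whereas no correlation of Cacna1g or Cacna1i with them passed the threshold. Of the 28 pairs of members, 13 had a Benjamini-Hochberg adjusted permutation p under 0.05 for Pearson's r, all among the 15 pairs of Cacna1a, Cacna1b, Cacna1c, Cacna1d, Cacna1e and Cacna1h, where r ran from 0.57 to 0.94. The highest was Cacna1b with Cacna1e, at r = 0.94 (two-sided permutation p = 1e-05, the smallest the permutations can give, adjusted p = 0.00028) and Spearman's rho = 0.90 (adjusted permutation p = 0.00215). It was 0.90 without the 2 libraries farthest from the median of Cacna1b and 0.95 in the 8 libraries of the first animal series. Of the pairs that passed by r, Cacna1a with Cacna1c, Cacna1a with Cacna1d and Cacna1b with Cacna1h did not pass by rho. Their adjusted permutation p for rho was 0.051, 0.0756 and 0.0756. For Cacna1a with Cacna1d, r was 0.80, and 0.40 without the 2 libraries farthest from the median of Cacna1a. None of the 13 pairs with Cacna1g or Cacna1i passed, with r from -0.48 to 0.44. The 12 points of each pair share their libraries, depth and tissue make-up. Cacna1i falls into separate clusters by genotype, so the values within each genotype are given as descriptions over 6 libraries. Within WT, Cacna1i had r of 0.40 to 0.68 with the 6 genes that varied together, and within KO -0.56 to 0.08. Cacna1g had r of -0.86 to -0.76 with the same genes within WT and -0.39 to 0.03 within KO. Between Cacna1g and Cacna1i, r was -0.33 within WT and -0.53 within KO libraries.

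The genes whose log2 CPM was most like that of each member over the 12 libraries are given, passing over unnamed genes such as Gm and Rik symbols. Beside them is the number of all genes tested, unnamed ones included, that had r above 0.9. For Cacna1e they were Tcf4, Grin2a and Arid1b (r of 0.99, 0.98 and 0.98), with 406 genes above 0.9. For Cacna1b they were Soga3, Tcaf1 and Sarm1 (0.99, 0.98 and 0.97), with 342 genes. For Cacna1a they were Soga3, Kcnma1 and Wdfy3 (0.96 each), with 79 genes, and for Cacna1c Itsn1, Ptpre and Fam120a (0.98, 0.96 and 0.96), with 143. For Cacna1d they were Meaf6, Hivep3 and Ubn1 (0.97 each), with 142 genes, and for Cacna1h Elk1, Ncdn and Gatad2b (0.97 each), with 180. For Cacna1i they were Rims4, Cyp46a1 and Arhgap33 (0.96, 0.95 and 0.95), with 35 genes. For Cacna1g they were Slc44a2, Ppp2r1b and Papss2 (0.94, 0.93 and 0.92), with 5 genes. These values are descriptions, picked as the highest of all genes that were not passed over.

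Promoter sequence is shown for the member with the largest genotype difference, Cacna1i, and for Cacna1b, which is in the pair of members most alike across libraries. Both are the 250 bases before the annotated start in RefSeq on GRCm38.p6, at chr15:80286988-80287237 on the plus strand for Cacna1i and chr2:24763153-24763402 on the minus strand for Cacna1b. Each is written 5′ to 3′ along its gene, with matches to the GC box GGGCGG on either strand in capitals.
Cacna1i: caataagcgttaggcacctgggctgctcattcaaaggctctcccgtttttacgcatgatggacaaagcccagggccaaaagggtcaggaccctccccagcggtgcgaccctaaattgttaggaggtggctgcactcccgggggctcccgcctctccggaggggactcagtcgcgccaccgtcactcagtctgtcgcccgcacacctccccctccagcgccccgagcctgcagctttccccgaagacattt
Cacna1b: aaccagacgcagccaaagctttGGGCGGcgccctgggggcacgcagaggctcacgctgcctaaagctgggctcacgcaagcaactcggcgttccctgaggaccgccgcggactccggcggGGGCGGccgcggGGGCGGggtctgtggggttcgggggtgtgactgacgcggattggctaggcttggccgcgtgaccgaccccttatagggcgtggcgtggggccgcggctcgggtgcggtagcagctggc
The Cacna1i stretch was 62.4% GC with 16 CpG dinucleotides, and the Cacna1b stretch 72.0% GC with 29 CpG dinucleotides. The median over 32851 promoters of this length was 52.4% GC and 6 CpG dinucleotides. On both strands, the Cacna1b stretch held 3 GC boxes, a motif found in 32.74% of all promoters, and 1 CCAAT box (CCAAT, 33.85%). It held no TATA box (TATAAA, 12.37%) and no cAMP response element (TGACGTCA, 1.546%). The Cacna1i stretch held none of these 4 letter strings. The table had entries for 5 of the 8 members, Cacna1b, Cacna1c, Cacna1d, Cacna1e and Cacna1i, and the others are Cacna1a, Cacna1g and Cacna1h. A match is a description of the letters only.

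Genes of auxiliary subunits, channel regulators and anchors, related pores, and proteins that respond to, release or export calcium were examined alongside. The 8 lists held 53 genes, of which 50 were tested. In the averaged genotype effect, 39 of 50 were higher and 11 lower in KO libraries, against 48.0% of all genes higher. The median of the 50 was 0.16 on the log2 scale. By edgeR, 2 rose and none fell, and 18 had an unadjusted p under 0.05, against the 0.576% and 14.4% of all genes given above. The 2 were Slc8a1, a sodium-calcium exchanger that exports calcium, and Kcnn1, a small-conductance calcium-activated potassium channel. Slc8a1 was at 287 ± 52.3 CPM in WT and 437 ± 55.3 in KO libraries (SD, n = 6 each), 1.53-fold higher with an edgeR adjusted p of 0.0258. Kcnn1 was at 14.7 ± 1.00 CPM in WT and 18.7 ± 1.37 in KO libraries (SD, n = 6 each), 1.27-fold higher with an edgeR adjusted p of 0.038. The counts and calls of these lists were not examined in fits with left-out libraries, so their dependence on single libraries is not known.

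No other gene of the lists was called by edgeR. DESeq2 called Slc8a1, Kcnn1, Rims1, Akap5, Cacng3 and Cacnb3, against 5.04% of all genes. Cacnb3 is named for that call alone. All 4 beta subunits, which bring high-voltage-activated alpha-1 to the membrane, had positive differences with a median of 0.20. Cacnb2, first by p, was at 0.22 and Cacnb3, the largest, at 0.35 (edgeR adjusted p = 0.173 and 0.174). All 4 alpha2-delta subunits, which promote surface and synaptic localisation, were positive with a median of 0.16, with Cacna2d3, first by p, at 0.32 (edgeR adjusted p = 0.173). Of 7 genes named as gamma subunits, 6 were positive, with Cacng3 at 0.42 (edgeR adjusted p = 0.173). The sparsely expressed Cacng6, at 1.70 CPM in WT and 0.80 in KO libraries, was at -1.11 (edgeR adjusted p = 0.195). Among 15 channel regulators and anchors, 10 were positive, with the presynaptic scaffold gene Rims1 at 0.42 and the anchor gene Akap5 at 0.39 (edgeR adjusted p = 0.12 and 0.156). Of 5 calcium-activated potassium channels, 4 were positive, with Kcnn2 at 0.33 after Kcnn1.

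Of the genes of calcium stores and export, only Slc8a1 was called by edgeR. Of 6 intracellular release channels, 5 were positive, with Ryr3 at 0.36 and Itpr2 at 0.15 (edgeR adjusted p = 0.209 and 0.422). Of 7 calcium extrusion genes, 5 were positive, and Atp2b1, a plasma membrane calcium pump, was at 0.27 (edgeR adjusted p = 0.271) after Slc8a1. In the list of other and related pores, Nalcn, a sodium leak channel, was at 0.16 (edgeR adjusted p = 0.36). The retinal L-type gene Cacna1f, with at most 8 reads in a library, was not tested, nor were Cacng1 and Stac3, known from skeletal muscle. For training, 35 of 50 were higher in trained mice, against 47.7% of all genes, and the median of the 50 was 0.12. Of the 50, 13 had an unadjusted edgeR p under 0.05, against the 11.2% of all genes given above.

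**Figure D5:**
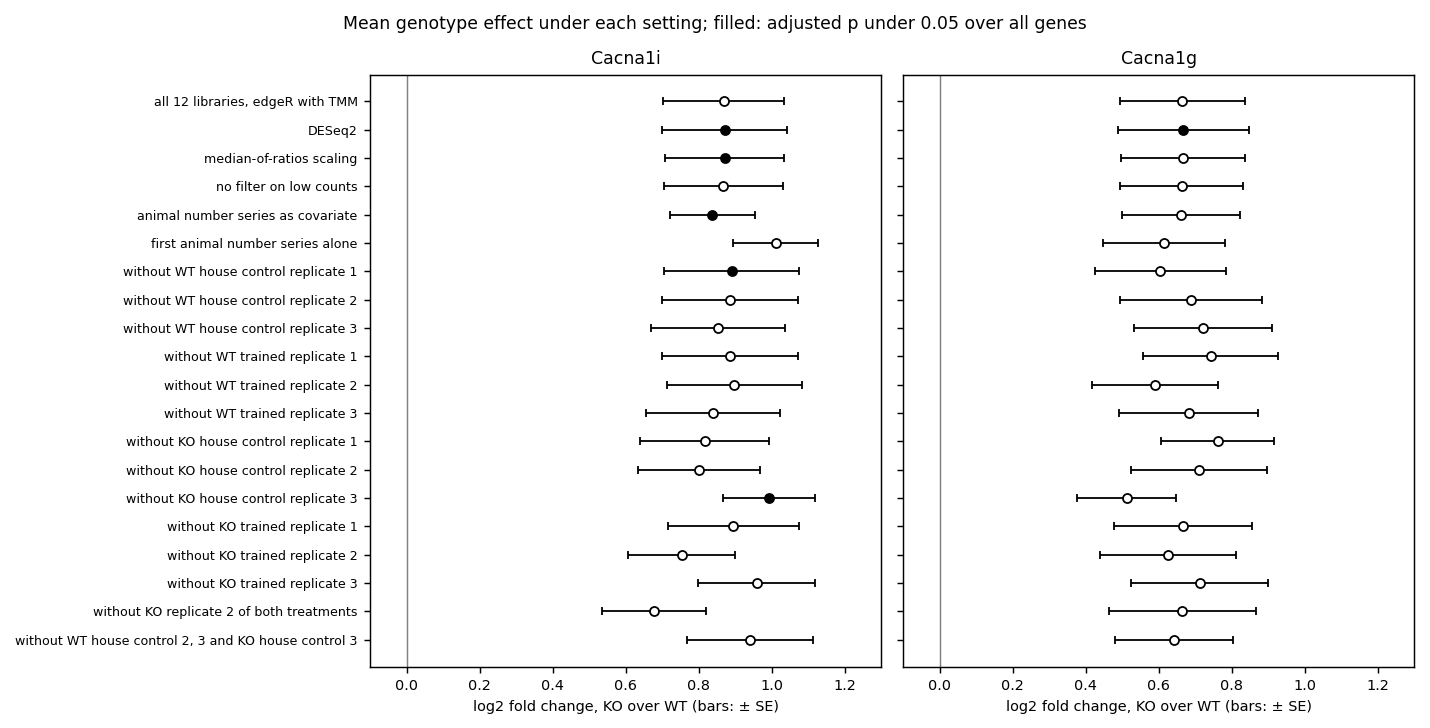
Averaged log2 fold change of KO over WT for Cacna1i and Cacna1g under each setting of the analysis, with bars of 1 SE, filled where the adjusted p over all genes was under 0.05. Cacna1i runs from 0.68 to 1.01 and Cacna1g from 0.51 to 0.76, all above 0, and the filled points differ between settings.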

How the data were processed

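RNA from the dorsal hippocampus of 12 male mice was sequenced as polyadenylated RNA libraries. The authors deposited whole-number counts of reads per gene symbol for each library. Per the submitters' processing notes, the build was mm10 and the tools were DESeq2 1.18.1, HTSeq 0.9.1, TopHat2 2.1.1, Bowtie2 2.3.4.2 and cutadapt 1.18; the annotation and strand setting are not given in the sources used here. For each of 4 pairs of groups there is also a results table from the authors. Per the file headers, it gives the p-value before and after adjustment, the log2 fold change with its error, the test's score and the average signal after normalization.

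Groups came from the labels. Genes were kept by edgeR's filterByExpr (minimum count 10, minimum total 15), scaled by TMM and fitted with edgeR 4.0.16 (R 4.3.3, quasi-likelihood, robust) in 1 model of 4 group means over 12 libraries, with Benjamini-Hochberg adjustment over 15622 genes and a threshold of 0.05. Alternatives were a DESeq2 1.42.0 test, median-of-ratios factors within edgeR, keeping low-count genes, the 2 groups alone, the animal number series, and left-out libraries. The edgeR fit was tested on simulated counts. No 2 libraries held identical counts. CPM is the count per 1000000 reads of the kept genes' total, after that total was adjusted by TMM scaling. Levels per kb use GENCODE exon lengths on mm10. At these depths 3 reads are 0.109 to 0.152 per 1000000 total counts, before TMM scaling. Intervals are unadjusted 95% intervals on the fitted scale.

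The named genes are the 8 members and Mbnl2, in each list of related genes the smallest p (2 smallest in lists of 5 or more), and the 3 genes most correlated with each member. Genes with symbols such as Gm and Rik were passed over in that correlation. Members and lists were chosen with earlier results of these data known.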

Additional observations from a re-analysis of the deposited data

Results flagged for a closer look

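Cacna1g in KO house control 3, at 96.0 CPM, stood apart from the other 5 KO libraries, which lay between 45.5 and 61.5 CPM. Its gap to the next library was 0.683 of the range of the 6, above Dixon's 95% critical value for 6 samples. The highest or lowest library of each member in each genotype was examined in this way, 16 groups in all, and chance flags about 1 in 20 groups. The same library had the second highest sum of thalamus markers, 610 CPM, and the lowest Cacna1i level of the KO libraries, 55.0 CPM. The part of the marker difference in the Cacna1g value was not tested.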

How the results depend on the processing

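For the averaged genotype effect, edgeR called 0 of 8 members, DESeq2 called 2 (Cacna1g and Cacna1i), and both median-of-ratios scaling and the animal number series as a covariate called 1 (Cacna1i). Leaving out 1 library gave 0 to 1 members, with Cacna1i called without WT house control 1 or KO house control 3. In trained mice DESeq2 called 1 (Cacna1i). The counts for the other 5 comparisons were 0 under every alternative run. Over all genes, the averaged genotype effect called 90 in edgeR, 725 in DESeq2 and 166 with the series covariate. It called 268 without WT house control 1 and 53 without KO house control 3. Far fewer were called without KO trained 1 (11), without WT trained 3 (8) and in the first animal series alone (2). The averaged differences of Cacna1i and Cacna1g stayed positive in all 19 alternatives, from 0.68 to 1.01 and from 0.51 to 0.76. The near-zero difference of Cacna1c changed sign: it ran from -0.17 to 0.12 over the fits leaving out 1 library and was 0.10 without both KO replicates numbered 2. Cacna1h was 0.00322 without both KO replicates numbered 2, and Cacna1e was -0.10 without WT house controls 2 and 3 and KO house control 3. The cause was not tested. Levels per kb rest on the length used: per kb of coding sequence, Cacna1c lay above Cacna1b (23.4 and 20.3 CPM per kb). No paired analysis was possible because the replicate numbers were given in accession order and pair no animals. With 3 mice per group, the standard errors of the averaged differences were 0.13 to 0.21 on the log2 scale. Differences within that error were not detectable, and larger ones, 0.87 for Cacna1i and 0.66 for Cacna1g, were not called by edgeR either.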
